A study of Homo sapiens with 6 samples.

Results

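Glutathione synthesis and transferase genes, 10 of the 61806 in the count table, were followed in RNA sequencing of MV4-11, a human acute myeloid leukemia cell line with a *FLT3*-ITD mutation. They were chosen by name, with earlier results of these data known, and each symbol matched 1 Ensembl gene. In all, 3 libraries came from cells with a control shRNA (shNC 1 to 3) and 3 from cells labelled as carrying an shRNA against adipose triglyceride lipase (shATGL 1 to 3). The comparison asks which transcripts differ when this lipase, encoded by *PNPLA2*, is knocked down. The vectors were lentiviral with selection of stably transduced cells per the study's methods. Both groups are of 1 line, and the labels name neither which of the study's shRNAs was used nor whether the libraries were separate cultures, so the p-values measure only the spread between these libraries.

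Glutathione is a tripeptide of glutamate, cysteine and glycine and the main thiol antioxidant of the cell. Glutamate-cysteine ligase, with its catalytic subunit *GCLC* and modifier subunit *GCLM*, makes gamma-glutamylcysteine, and glutathione synthetase (*GSS*) adds glycine. *GSR* reduces oxidized glutathione with NADPH, and *GGCT* acts on gamma-glutamyl amino acids in turnover. The glutathione transferases *GSTP1*, *GSTK1* and *GSTO1* and the membrane-bound *MGST2* and *MGST3* join glutathione to, or reduce with it, reactive and lipid-derived compounds. Many of these genes can be induced by NRF2, the product of *NFE2L2*, through antioxidant response elements.

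Of the genes, 3 are shown by sequence because their promoters hold the core of that element. RefSeq promoters of GRCh38.p14, from 250 bases before to 50 bases after the start, were at hand for 6 of the 10 (*GCLC*, *GCLM*, *GSTP1*, *GSTK1*, *GSTO1* and *MGST3*). TGACNNNGC, searched on both strands, occurred in 3 of them, and in 13.3% of the 35116 promoters in the table. In the lines below capitals mark the 9 matching bases, read on the strand of the gene, with 10 bases on either side. *GCLM* reads as the reverse complement of the motif.
GCLM: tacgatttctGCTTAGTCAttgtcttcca
GSTP1: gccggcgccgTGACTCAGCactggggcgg
GSTO1, upstream match: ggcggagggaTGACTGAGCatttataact
GSTO1, downstream match: cgagatgcttTGACACAGCcccttaagat
These stretches lie at chr1:93909446-93909474, chr11:67583736-67583764, chr10:104254656-104254684 and chr10:104254721-104254749. A match is a string of letters and was not tested for binding.

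The libraries held 59674064 to 74808280 counts. Each member had between 1941 and 23500 counts in a library, so the counting error was at most 2.27% of a value, and intervals from the model cover the spread between libraries. The targeted *PNPLA2* was measured first, since it checks the labels. It stood at 101.1, 97.0 and 107.1 CPM (counts scaled to a common library size after TMM normalization) in shNC and at 102.4, 98.1 and 103.7 CPM in shATGL. The groups overlapped, and the log2 fold change of *PNPLA2* was -0.01 with a 95% interval from -0.15 to 0.14 (adjusted p = 0.979 by edgeR's quasi-likelihood test). These counts measure RNA only, and the protein was not analysed here. Every direction below is therefore a difference between libraries so labelled. The library shATGL 3 stood apart from the other shATGL libraries. On the first principal component, with 49.8% of the variance, it lay at -18.0, while shATGL 1 and 2 lay at 26.0 and 26.7 and the shNC libraries between -20.8 and -4.6. On the second, with 16.2%, shATGL 3 lay at -22.05, apart from both groups. There shATGL 1 and 2 lay at -0.6 and -3.5 and the shNC libraries between 7.3 and 10.6. Of 11 myeloid markers all were tested, with *CD33* at 84.4 and *LYZ* at 789.2 CPM, while *CD14* and *MPO* were low (0.17 and 3.87 CPM). Of 12 markers of other cell types 7 were at 0 in every library, but *NCAM1* and *PECAM1* were expressed at 258.5 and 268.6 CPM in the mean of all libraries.

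Levels differ widely among the members. Per kilobase of merged exons in shNC, *GSTP1* was highest at 156.4 ± 14.7 CPM per kilobase (SD, n = 3). It was followed by *GSTO1* at 46.1 ± 5.73, *GGCT* at 40.0 ± 0.649 and *GSTK1* at 31.9 ± 0.557. *MGST2* (21.1 ± 1.43) and *GSR* (21.0 ± 1.15) came next, then *GCLM* (14.4 ± 1.29), *GSS* (12.9 ± 0.57), *MGST3* (7.06 ± 0.573) and *GCLC* (3.83 ± 0.255). Neighbours in this order overlapped between libraries for *GSTO1* and *GGCT*, for *MGST2* and *GSR*, and for *GCLM* and *GSS*. The ends of the order held with either measure of length, but the middle did not. Per kilobase of the longest coding transcript, *GSTK1* stood at 113.7 CPM per kilobase, below *GSTP1* alone. *MGST3* stood at 52.5 CPM per kilobase, with *GSTP1*, *GSTK1*, *GSTO1* and *GGCT* higher in the mean. Its libraries overlapped those of *GGCT* (54.5) and *MGST2* (52.4). *GSTP1* supplied 30.2% of the members' summed CPM.

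**Figure D1:**
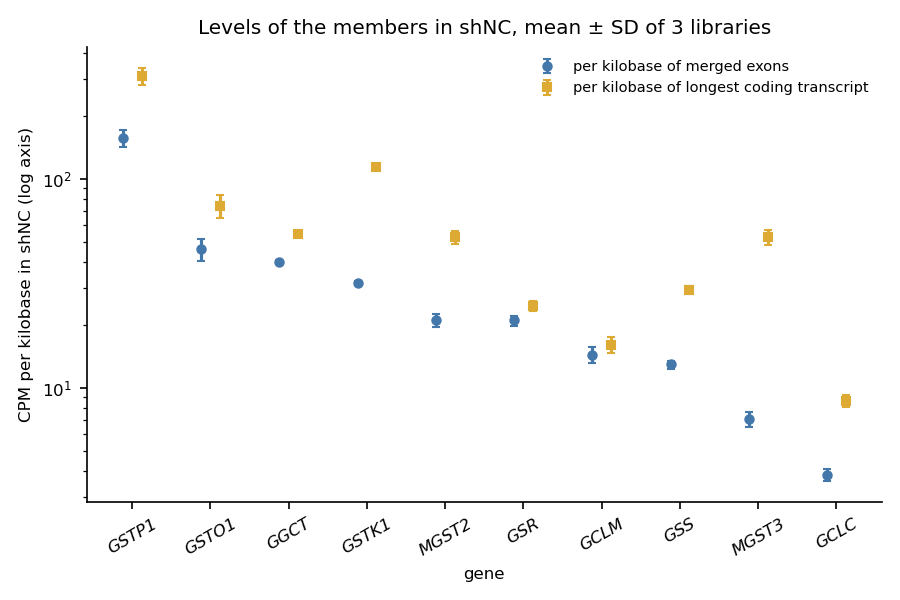
Levels of the 10 genes in shNC as CPM per kilobase on a log axis, with the mean and SD of 3 libraries, for merged exons and for the longest coding transcript. *GSTP1* is highest and *GCLC* lowest by both, while places in between differ, with *GSTK1*, *MGST3* and *GSS* each ranked higher by the longest coding transcript.

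All 10 members had a log2 fold change below 0 in shATGL, but none passed the test adjusted over the 19149 genes tested. Of all tested genes 48.1% lay below 0. Among those with a mean CPM of at least 10 it was 94.4% for transcripts under 1000 bases and 86.9% from 1000 to 1500 bases. *GSTP1*, *GSTO1*, *MGST3*, *GGCT*, *GSTK1* and *MGST2* fall in these short classes. In the longer classes that hold *GSS*, *GSR*, *GCLC* and *GCLM* the share ran from 70.1% to 39.4%. The members' fold changes ran from -0.34 to -0.07 with a median of -0.15, and the median of all tested genes was 0.01. It was -0.0219 among those with a transcript length and a mean CPM of at least 10, as all 10 members have. In all, 4 members (*GGCT*, *GSTP1*, *MGST2*, *MGST3*) were lower at an unadjusted p under 0.05 by edgeR's test, where 5.94% of all tested genes were lower and 5.77% higher. The smallest adjusted p of a member was 0.392. At an adjusted p under 0.05 there was 1 gene in the whole table, or 0.00522%, and the same 1 gene (0.00522%) was left with a fold change of at least 2. Another count of 4 members (*GGCT*, *GSTP1*, *GSTK1*, *MGST2*) had groups that did not overlap, all lower, beside 9.38% of tested genes lower and 7.93% higher. Their summed level was 971.8 ± 47.8 CPM in shNC and 859.9 ± 52.1 CPM in shATGL (SD, n = 3). The exact permutation test of 3 against 3 cannot go below p = 0.1.

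Both subunits of glutamate-cysteine ligase overlapped between the groups. *GCLC* (chr6:53497341-53616970, minus strand) was measured at 35.6, 32.6 and 31.3 CPM in shNC and at 29.6, 32.0 and 32.3 CPM in shATGL. Its log2 fold change was -0.08 with a 95% interval from -0.27 to 0.11 (adjusted p = 0.703). *GCLM* (chr1:93885205-93909456, minus strand) was measured at 78.2, 84.9 and 70.9 CPM in shNC and at 69.5, 75.01 and 75.8 CPM in shATGL. shNC 1 and 2 were the highest, shNC 3 lay below shATGL 2 and 3, and the log2 fold change was -0.09 (-0.28 to 0.11, adjusted p = 0.688). Without shNC 2 it was 0.0014. The ratio of *GCLC* to *GCLM* per kilobase was 0.285, 0.241 and 0.276 in shNC and 0.267, 0.268 and 0.267 in shATGL, a log2 difference of 0.00293 (exact permutation p = 1). *GSS* (chr20:34928433-34956027, minus strand) was measured at 81.3, 75.8 and 82.4 CPM in shNC and at 69.6, 70.7 and 78.1 CPM in shATGL. Only shATGL 3 lay within the shNC range, and the log2 fold change was -0.13 (-0.30 to 0.04, adjusted p = 0.496).

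*GGCT* (chr7:30496621-30504844, minus strand) was the steadiest in shATGL. It was measured at 64.9, 62.8 and 64.1 CPM in shNC and at 57.4, 58.0 and 56.8 CPM in shATGL. The groups did not overlap, and their coefficients of variation were 1.62% and 1.06%. The log2 fold change was -0.16 (-0.29 to -0.02, unadjusted p = 0.0298, adjusted p = 0.399). Of its exon bases 27.6% are shared with AC005154.5 on the same strand, which had 0 counts. *GSR*, on chromosome 8, was measured at 76.4, 76.6 and 84.0 CPM in shNC and at 69.4, 66.4 and 80.3 CPM in shATGL. shATGL 3 lay above shNC 1 and 2, and the log2 fold change was -0.13 (-0.34 to 0.07, adjusted p = 0.559).

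**Figure D2:**
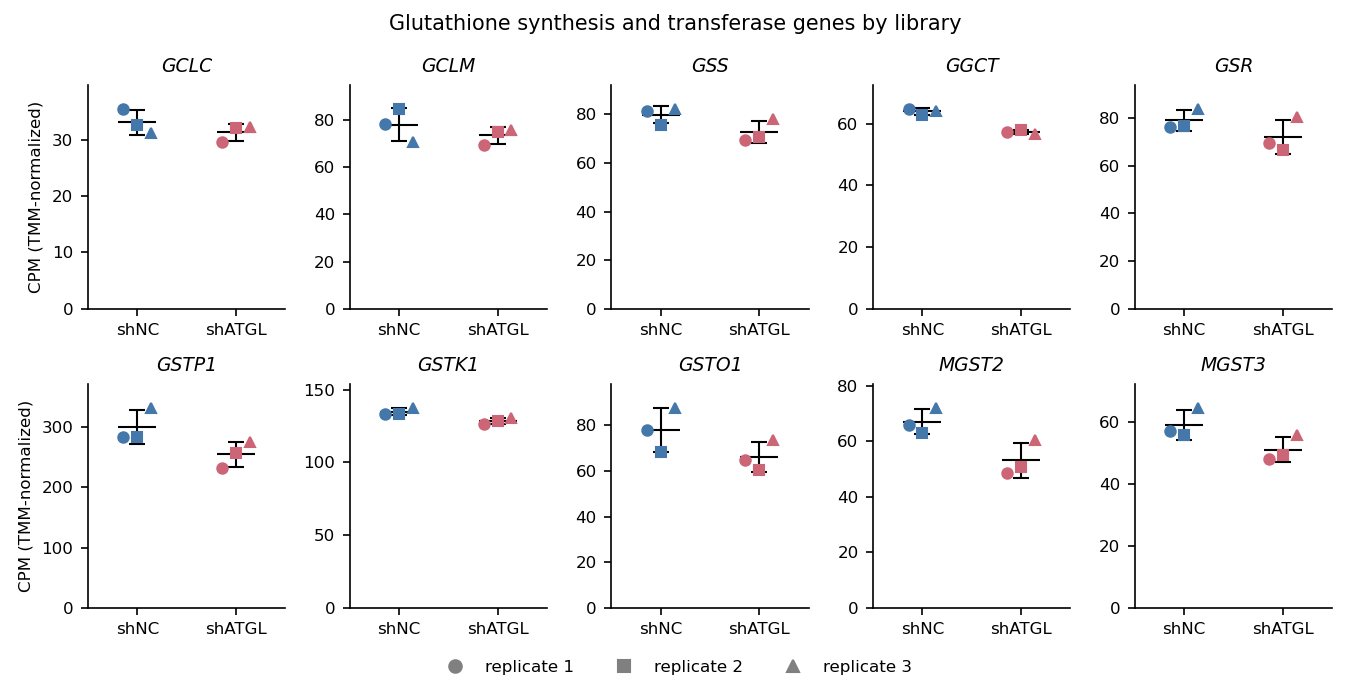
CPM of each member by library, with each panel starting at 0, points for libraries, and the mean and SD of 3 libraries as bars. The groups are apart for *GGCT*, *GSTP1*, *GSTK1* and *MGST2* and overlap for the other 6.

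*GSTP1* (chr11:67583595-67586656, plus strand) encodes the pi-class transferase. It was measured at 283.3, 282.2 and 331.4 CPM in shNC and at 231.4, 256.7 and 274.0 CPM in shATGL. All shATGL libraries lay below the shNC libraries, and the log2 fold change was -0.24 (-0.44 to -0.03, unadjusted p = 0.0323, adjusted p = 0.4). *GSTK1* (chr7:143244093-143270854, plus strand), the kappa-class transferase, was measured at 133.4, 133.4 and 137.5 CPM in shNC and at 126.5, 128.5 and 130.3 CPM in shATGL. The groups did not overlap, yet the log2 fold change was -0.07 (-0.19 to 0.05, adjusted p = 0.610). *GSTO1* (chr10:104235356-104267459, plus strand), an omega-class enzyme, varied most in shNC, with a coefficient of variation of 12.4%. It was measured at 77.8, 68.2 and 87.6 CPM in shNC and at 64.9, 60.3 and 73.4 CPM in shATGL. shATGL 3 lay above shNC 2, and the log2 fold change was -0.24 (-0.50 to 0.02, adjusted p = 0.452).

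The membrane-bound *MGST2* (chr4:139665768-139740745, plus strand) had the lowest log2 fold change of the members. It was measured at 65.9, 63.1 and 72.0 CPM in shNC and at 48.4, 50.6 and 60.4 CPM in shATGL. shATGL 3 was the nearest to shNC without reaching it, and the log2 fold change was -0.34 (-0.57 to -0.10, unadjusted p = 0.0110, adjusted p = 0.392). Of its exon bases 7.92% are shared with *MAML3* on the other strand, which had 128 to 156 counts per library. *MGST3* (chr1:165630861-165661796, plus strand) was measured at 57.3, 55.8 and 64.8 CPM in shNC and at 48.3, 49.4 and 55.8 CPM in shATGL. shATGL 3 reached the lowest shNC library, and the log2 fold change was -0.21 (-0.42 to -0.00384, unadjusted p = 0.0468, adjusted p = 0.421). The ratio of *MGST2* to *MGST3* per kilobase was 2.99 ± 0.0511 in shNC and 2.73 ± 0.11 in shATGL (SD, n = 3, exact permutation p = 0.1, the smallest possible).

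Read across a library, the median member was lowest in shATGL 1 and 2. As a percentage of the shNC mean, the median member stood at 87.5% in shATGL 1, 87.2% in shATGL 2 and 95.4% in shATGL 3, and at 99.5%, 96.0% and 105% in shNC 1 to 3. In shATGL 1 and 2 all 10 members lay below 100%, in shATGL 3 there were 9, and in shNC 2 there were also 9. *GGCT* differed in that shATGL 3, at 88.7%, was its lowest library. Without shATGL 3, *MGST2* (log2 fold change -0.44, adjusted p = 0.00973 by edgeR) and *MGST3* (-0.28, adjusted p = 0.0467) were lower at an adjusted p under 0.05, as were 6.07% of 19954 tested genes. The median of the members was then -0.205. Trends with transcript length were not removed in this fit, and *MGST2* (1278 bases) and *MGST3* (1130) have short transcripts.

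**Figure D3:**
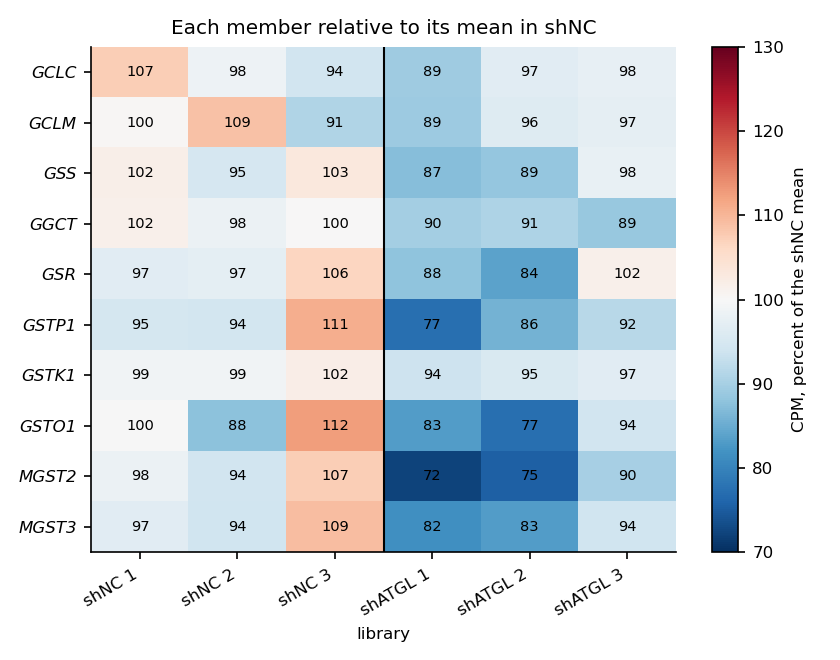
CPM of each member in each library as a percentage of its shNC mean, with rows for genes and columns for libraries. shATGL 1 and 2 lie between 72.2% and 96.6%, and shATGL 3 lies between 88.7% (*GGCT*, its lowest library) and 102% (*GSR*).

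Fold changes moved with transcript length, and the members' values are given beside that trend. Length here is that of the longest coding transcript, or of the longest transcript where none is coding. Over all 18600 tested genes with a transcript length, the Spearman correlation between log2 fold change and this length was 0.224. Among the 9270 of them with a mean CPM of at least 10 it was 0.56. Both are descriptions across genes that share the same libraries. In the same 9270 genes, each library's deviation in log2(CPM + 1) from the mean of all libraries was also set against length. Spearman's correlation was -0.305, -0.121 and -0.609 in shNC 1 to 3. It was 0.432, 0.462 and -0.0445 in shATGL 1 to 3, so shATGL 1 and 2 lay furthest from shNC. Of these 9270 genes, the 411 under 1000 bases had a median log2 fold change of -0.25. It was -0.18 for 649 genes from 1000 to 1500 bases and 0.11 for 1690 genes of 6000 bases or more. *GSTP1* (961 bases), *GSTO1* (1052), *MGST3* (1130), *GGCT* (1173), *GSTK1* (1185) and *MGST2* (1278) are in the 2 shortest classes. *GSTP1*, *GGCT* and *GSTK1* lay above the median of their class, and *GSTO1*, *MGST3* and *MGST2* below it. *GSS* (2702), *GSR* (3192), *GCLC* (3813) and *GCLM* (4857) are longer, and each lay below the median of its class, which ran from -0.07 for 2000 to 3000 bases to 0.03 for 4000 to 6000 bases.

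Removing each library's trend with length and GC content gave different answers by the genes used to fit the trend, and both are given. With trends fitted on all tested genes, all 10 members were below 0, with a median of -0.194. The median was -0.0526 over all tested genes, of which 59.3% were below 0, and -0.0867 among those with a mean CPM of at least 10. *GSS*, *GGCT*, *GSTP1* and *MGST2* were then lower at an unadjusted p under 0.05 by edgeR, as were 9.88% of all tested genes. The Spearman correlation with length was 0.0594 over all tested genes and 0.284 among those with a mean CPM of at least 10. A second fit, chosen after values of an earlier fit had been seen, took the trends from genes with a mean CPM of at least 10. It left a correlation of -0.0369 among those genes and -0.176 over all tested genes. The median of the members was then -0.0714, beside 0.0206 over all tested genes and -0.0219 among those with a mean CPM of at least 10. In that fit 9 of 10 members were below 0 (beside 45.9% of all tested genes), and *GSTK1* was at 0.111. Of the members, *MGST2* had an unadjusted p under 0.05 (log2 fold change -0.145, edgeR's adjusted p = 0.429), beside 4.2% of all tested genes lower.

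**Figure D4:**
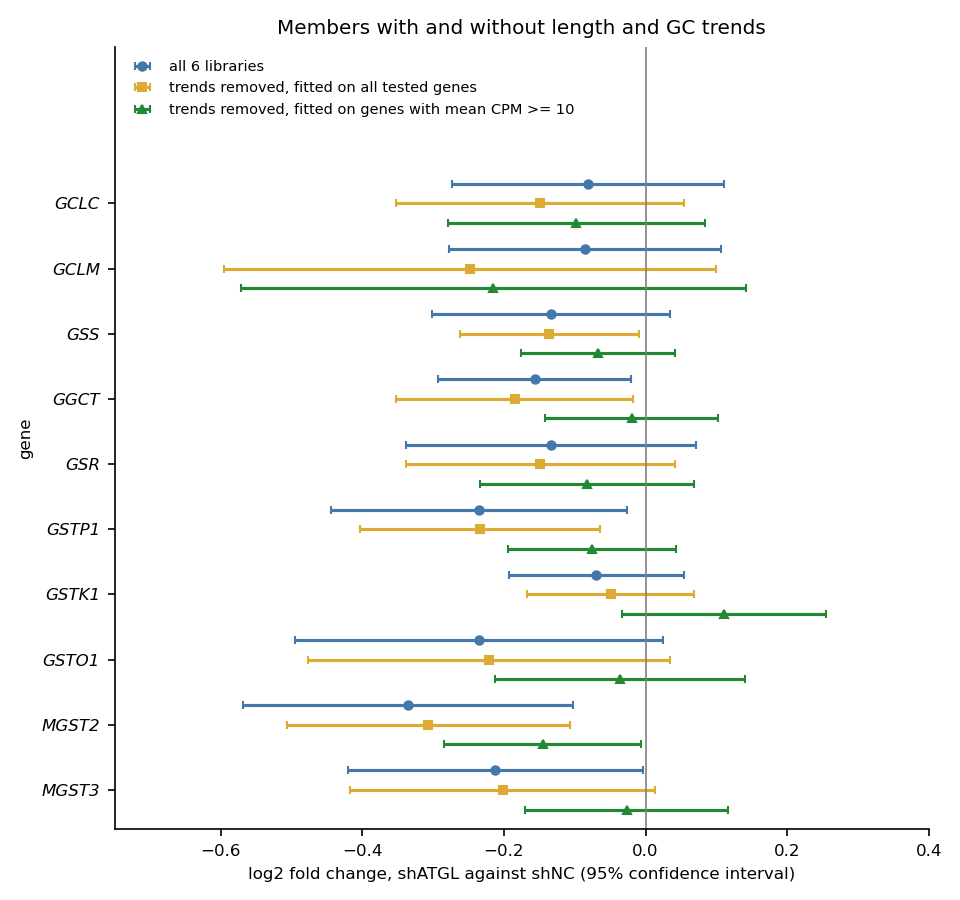
Log2 fold change of each member with its 95% confidence interval from all 6 libraries, and with length and GC trends removed by either fit. With trends from genes with a mean CPM of at least 10, *GGCT* lies at -0.0193 and *MGST3* at -0.0264, 9 of 10 members lie below 0 in all 3 fits, and the whole interval of *MGST2* does.

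Other genes of the pathway were taken from role lists. Of 87 listed genes 71 were tested, 48 below 0 (beside 48.1% of all tested genes) and 23 above 0. Their median log2 fold change was -0.09, and 0 of them had an adjusted p under 0.05 by edgeR's test. At an unadjusted p under 0.05, 9 (12.7%, beside 5.94% of all tested genes) were lower (*GSTM1*, *GSTM4*, *GPX1*, *GLRX*, *GLO1*, *IDH2*, *TXN*, *FTL* and *BLVRB*) and 1 (1.41%, beside 5.77%) higher (*ABCC2*). *ABCC2* was near the floor, with 15 to 60 counts per library, at 0.30 ± 0.05 CPM in shNC and 0.65 ± 0.18 in shATGL (SD, n = 3). With trends fitted on all tested genes 10 listed genes were lower (14.1%, beside 9.88%), and with trends from genes with a mean CPM of at least 10 there were 3 (4.23%, beside 4.2%). Log2 fold changes by the latter fit were -0.0419 for *GSTM1*, -0.0677 for *FTL*, -0.12 for *TXN* and -0.134 for *GLO1*. *IDH2* lay at -0.166 and *GPX1* at -0.167 by that fit. limma voom with sample quality weights gave 13 of the listed genes an adjusted p under 0.05, 12 lower and 1, *NFE2L2*, higher. That is 18.3% of the listed genes tested, beside 10.8% of all tested genes in either direction. By that test 1 member, *MGST2*, was lower (voom's adjusted p = 0.025), as were 5.27% of all tested genes.

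Among other transferases 7 of 8 tested genes lay below 0, beside 48.1% of all tested genes. *GSTM1*, a mu-class enzyme, was measured at 89.3, 87.3 and 99.95 CPM in shNC and at 75.1, 76.3 and 83.4 CPM in shATGL (log2 fold change -0.24, unadjusted p = 0.0168, adjusted p = 0.392 by edgeR). The mu-class genes are similar in sequence, so reads may be split between them, which was not tested. *GSTA1*, *GSTA2*, *GSTA3*, *GSTA5*, *GSTT2*, *GSTT2B* and *HPGDS* had no count in any library. *MGST1*, a membrane transferase, was at 99.2 ± 6.17 CPM in shNC and 92.1 ± 7.26 in shATGL, and *LTC4S*, leukotriene C4 synthase, at 17.1 ± 2.08 and 15.1 ± 1.51 CPM (SD, n = 3).

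*GPX1*, which reduces hydrogen peroxide with glutathione, was measured at 988, 955.3 and 1140 CPM in shNC and at 781.1, 787.6 and 934.1 CPM in shATGL (log2 fold change -0.30, unadjusted p = 0.0145, adjusted p = 0.392 by edgeR). All 6 glutaredoxin and glyoxalase genes were below 0, beside 48.1% of all tested genes. *GLO1*, which acts on the methylglyoxal adduct of glutathione, was measured at 1513, 1467 and 1500 CPM in shNC and at 1347, 1355 and 1335 CPM in shATGL, without overlap. Of 7 genes of NADPH supply 6 were below 0, beside the same 48.1%. *IDH2* was at 391.6 ± 20 CPM in shNC and 336.1 ± 29.2 in shATGL, and *TKT* at 445.8 ± 9.58 and 425.0 ± 29.8 (SD, n = 3).

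Supply, breakdown and transport genes lay on both sides of 0. Of 8 genes listed under cysteine and glutamate supply 5 were below 0, beside 48.1% of all tested genes. The list also holds *MTHFD2* and *SHMT2*, mitochondrial enzymes of one-carbon metabolism. *SLC1A5*, a glutamine carrier, was at 306.6 ± 11.3 CPM in shNC and 288.4 ± 32.5 in shATGL, and *MTHFD2* was at 136.7 ± 0.255 and 124.1 ± 6.58 CPM (SD, n = 3). Of 12 breakdown genes 5 were below 0, with *LAP3* at 66.8 ± 2.81 and 62.5 ± 9.15 CPM and *ANPEP* at 35.4 ± 0.866 and 38.2 ± 1.88 CPM (SD, n = 3). Of 7 transport genes 5 were above 0, with a median log2 fold change of 0.14. The mitochondrial carrier *SLC25A39* was at 115.0 ± 2.62 and 110.3 ± 5.38 CPM, and *ABCC5* at 8.70 ± 0.886 and 10 ± 0.518 CPM (SD, n = 3).

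The NRF2 axis was measured through 7 regulators and 9 further targets. *NFE2L2* was at 77.9, 78.4 and 71.1 CPM in shNC and at 110, 113 and 67.3 CPM in shATGL. It was thus high in shATGL 1 and 2 and lowest of all in shATGL 3, with a log2 fold change of 0.35 (adjusted p = 0.480 by edgeR). Without shATGL 3 the log2 fold change of *NFE2L2* was 0.55 (adjusted p = 0.0017 by edgeR). In that fit 2795 of 19954 tested genes had an adjusted p under 0.05 in either direction. *MAFG*, a partner of NRF2, was at 223.2 ± 9.81 and 217.5 ± 11.9 CPM (SD, n = 3). Of the targets 8 of 9 lay below 0, beside 48.1% of all tested genes. *TXN* (869 bases), *FTL* (878) and *BLVRB* (938) have transcripts under 1000 bases. In that class 94.4% of genes with a mean CPM of at least 10 lay below 0. *TXN*, thioredoxin, was measured at 167.5, 164.7 and 189.8 CPM in shNC and at 141.2, 136.8 and 148.6 CPM in shATGL, without overlap (log2 fold change -0.29, unadjusted p = 0.0046, adjusted p = 0.392 by edgeR). *FTL*, ferritin light chain, was at 4877 ± 483.1 and 4040 ± 556.8 CPM (SD, n = 3). In bulk RNA, fewer cells that express a gene and less RNA per cell cannot be told apart.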

How the data were processed

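RNA was sequenced from 3 shNC and 3 shATGL libraries of MV4-11. Per the study's methods FASTP was used to clean the reads. The authors deposited raw counts per Ensembl gene. The aligner, counter, strand setting and annotation are not given in the sources used here. The submitters' processing notes list mm10, but the identifiers are human. Coordinates and lengths are from GENCODE 29 for GRCh38, and promoters from RefSeq.

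Groups were compared by edgeR 4.0.16 under R 4.3.3 (filterByExpr with a minimum count of 10 and minimum total of 15, TMM, quasi-likelihood test, Benjamini-Hochberg adjustment over 19149 genes). The exact two-sided permutation test used 20 relabellings. DESeq2 1.42.0, limma 3.58.1 voom, other normalizations and filters, a replicate block, left-out libraries and removal of length and GC trends (natural splines with 4 degrees of freedom) were alternatives. The code of the trend removal was revised after its first values were seen, because it scaled libraries a second time, and a fit restricted to genes with a mean CPM of at least 10 was added then. Both fits are given.

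Members and lists were chosen with earlier results of these data known. Named genes were the members, *PNPLA2* and, per list, the gene with the highest mean CPM and that with the smallest unadjusted p at a mean CPM of at least 1. Other genes were named after their values were seen. On simulated data with 200 of 19149 genes changed, edgeR called 194 of them and 9 others. That count checks the code and is not a measure of power for the members. Their log2 fold changes were small (-0.34 to -0.07), and how often differences of that size would be detected in these libraries was not tested.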

Additional observations from a re-analysis of the deposited data

How the results depend on the processing

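Over 15 alternatives, 145 of 150 log2 fold changes of single members kept their direction and their side of the adjusted threshold. *GSTK1* reversed to 0.111 with trends from genes with a mean CPM of at least 10, a fit chosen after seeing the data, and *GCLM*, from -0.151 to 0.0014 with 1 library left out, did so without shNC 2. *PNPLA2* moved to 0.0231 in that same fit and ranged from -0.024 to 0.0327 with 1 library left out. Genes called in the whole table numbered 1, and 3 with upper-quartile normalization, 24 with DESeq2, 266 with limma voom and 0 to 319 with 1 library left out, the highest without shATGL 3. Members lower at an unadjusted p under 0.05 numbered 4 (5.94% of all tested genes), and 2 with DESeq2 (3.14%), 7 with voom (15.1%), 1 with trends from genes with a mean CPM of at least 10 (4.2%) and 1 to 7 with 1 library left out (2.25% to 14.1%, the highest of both without shATGL 3). Members with an adjusted p under 0.05 numbered 1 with voom and 0 to 2 with 1 library left out, and genes of the wider lists 13 and 0 to 19. Over all tested genes this held for 10.8% with voom and for 2795 of 19954 genes without shATGL 3, where the highest counts arose. Members whose groups did not overlap numbered 4 (9.38% of all tested genes lower), and 2 with upper-quartile normalization (7.73%), 2 with trends from genes with a mean CPM of at least 10 (7.41%) and 4 to 8 with 1 library left out, 8 without shATGL 3 (24.1%). The log2 difference of the *GCLC* to *GCLM* ratio ran from -0.0707 to 0.0511. The cause of these changes was not tested. A replicate block left 0 genes called, and 6 members were lower at an unadjusted p under 0.05 (9.41% of all tested genes), but the numbers are not known to pair the libraries (correlations of same-numbered libraries 0.0599, 0.233 and 0.343), and not every library correlated best with its own number.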

Other observations

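The genes most like the members over the 6 libraries, by Pearson's r with the mean of their standardized log2(CPM + 1), were *PDSS1*, *PPIL1*, *MRPL18*, *RPUSD1* and *SELENOW*. *PDSS1*, which makes the side chain of coenzyme Q, was at 31.9, 31.1 and 33.2 CPM in shNC and at 24.9, 26.8 and 29.7 CPM in shATGL. *SELENOW*, a selenoprotein, was at 130.9, 125.0 and 138.5 CPM in shNC and at 98.5, 102.4 and 122.2 CPM in shATGL. Of 9287 candidates 1284 had an r above 0.9, so such likeness was common in these libraries.

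*GCLC-AS1*, which overlaps *GCLC* by 7 exon bases on the other strand, had 8 and 9 counts in shATGL 1 and 2 and 0 in the other 4 libraries.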
